A study of Mus musculus with 6 samples.

Results

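The clustered protocadherins are cell adhesion genes that lie in 3 neighbouring clusters, alpha, beta and gamma, on mouse chromosome 18. They were taken from the gene table of the mouse hippocampus as the protein-coding genes whose name starts with Pcdha, Pcdhb or Pcdhg. This gave 57 of the 54532 genes of the table, 14 in the alpha cluster, 22 in the beta cluster and 21 in the gamma cluster. RNA of the hippocampus was sequenced for 3 wild-type mice (WT1 to WT3) and 3 TG mice (TG1 to TG3), without treatment. The TG mice carry G82R and L85P, placed by CRISPR/Cas9 in exon 3 of Slc1a2, the gene of the astrocytic glutamate transporter GLT-1, on a C57BL/6N background. The allele is a germline knock-in with no tissue-specific driver, and the wild-type controls were littermates. Age, sex and the number of founder lines behind the 6 sequenced mice are not given in the labels. The comparison of WT with TG asked which genes differ in the hippocampus of mice with the epilepsy-linked changes in GLT-1.

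In the alpha and gamma clusters, each gene has a promoter and a large variable exon of its own, which encodes the cadherin repeats, the membrane span and the start of the tail, and this exon is spliced to short constant exons that all genes of the cluster share. Beta genes consist of the variable exon alone. A neuron uses a small and partly random set of these promoters on each chromosome, chosen with the help of DNA methylation, the factor CTCF and cohesin loops, and the proteins pair only with like sets on another cell surface, which lets a neuron tell its own branches from those of its neighbours. The 5 C-type genes at the ends of the alpha and gamma clusters (Pcdhac1, Pcdhac2, Pcdhgc3, Pcdhgc4 and Pcdhgc5) are used in a more regular way, and several of them have known roles of their own. In bulk tissue each value is a sum over many neurons and other cells, so that more cells using a promoter and more RNA per cell cannot be told apart.

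Values are FPKM, the reads of a gene scaled to its length in kilobases and to the size of the library. The 6 libraries held 16081281 to 18751057 reads on genes, and 3 reads on a gene of 1 kb came to 0.160 to 0.190 FPKM. Markers of the tissue were present in all libraries. The 6 neuron markers summed to 820 to 845 FPKM in WT and 785 to 891 FPKM in TG and the CA field markers to 146 to 184 and 147 to 171, so the groups overlapped for both, and Prox1, the marker of dentate granule cells, had 12.3 ± 1.87 FPKM in WT and 11.5 ± 1.64 in TG (SD, n = 3 each). Libraries TG1 and TG2 stood apart in RNA of the choroid plexus, the epithelium that lines the ventricle beside the hippocampus. Its 6 markers summed to 1199 FPKM in TG1 and 3788 FPKM in TG2 against 55.5 to 79.5 FPKM in WT and 64.0 FPKM in TG3. The 5 oligodendrocyte markers summed to 342 to 437 FPKM in WT and to 287, 383 and 413 FPKM in TG1 to TG3. Library WT3 stood apart in the protocadherins themselves, as given below. Differences were tested with limma on log2(FPKM + 0.1) over all 20952 genes that averaged 0.1 FPKM or more, and p-values were adjusted over them by Benjamini-Hochberg. Among these, 2 genes (0.00955%) passed an adjusted p of 0.05 and 1238 (5.91%) had an unadjusted p under 0.05. The p-values measure the spread between these 3 and 3 mice, and the smallest p an exact permutation test of 3 against 3 can give is 0.1.

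All 57 genes were read as RNA in at least some libraries, but at low level. Of the 57, 53 passed the filter: 12 alpha, 21 beta and 20 gamma genes. The median gene had 0.599 FPKM in the alpha cluster, 1.52 in the beta cluster and 2.06 in the gamma cluster. FPKM divides by the full gene length, which in alpha and gamma genes includes exons shared within the cluster. Per kilobase of exon sequence that no other gene holds on either strand, the medians were 1.46, 1.54 and 3.78 reads, scaled to library size. The low alpha median against beta is thus a matter of scale. The cluster totals were 1052 to 1515 reads per library for alpha, 2791 to 3439 for beta and 4207 to 5907 for gamma, which sets the counting error for a single gene. The plot of all members by library shows most genes of each cluster between 0.1 and 5 FPKM, with Pcdhac2, Pcdhb9, Pcdhgc3 and Pcdhgc5 above and Pcdha4, Pcdha11 (ENSMUSG00000102206), Pcdhb1 and Pcdhga10 below.

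**Figure D1:**
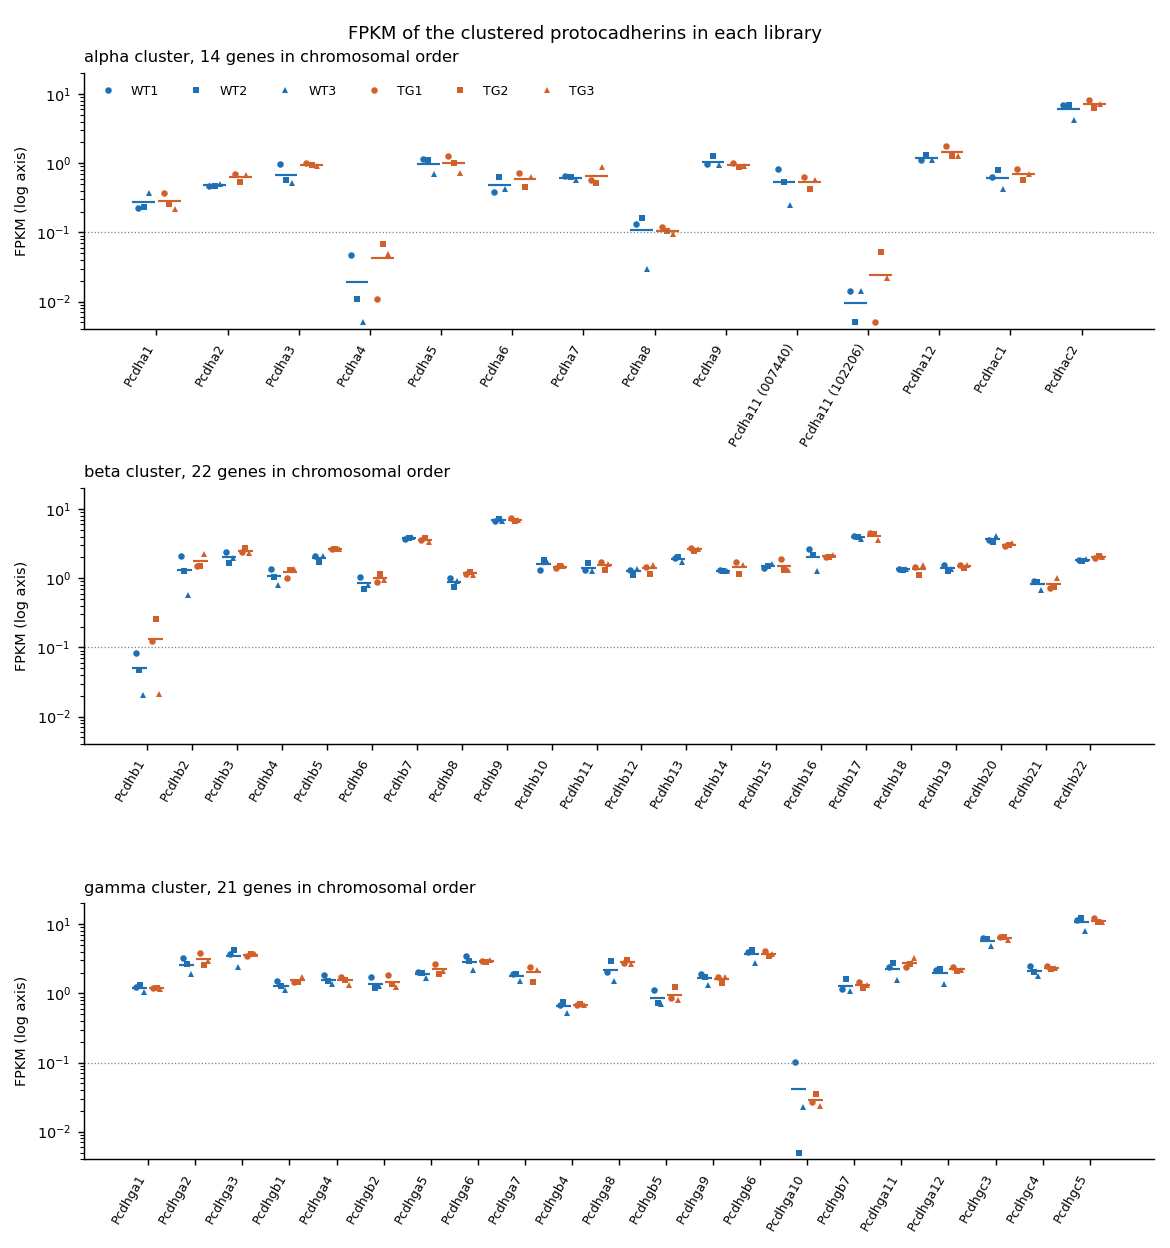
FPKM (log axis) of the 57 clustered protocadherins in chromosomal order, with 1 panel per cluster, blue symbols for WT1 to WT3, orange symbols for TG1 to TG3 and a bar at each group's mean. The dotted line is the filter at 0.1 FPKM, symbols at the lower edge stand for a value of 0, and Pcdhgc5, Pcdhb9, Pcdhac2 and Pcdhgc3 are the highest genes.

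The C-type genes led the alpha and gamma clusters. Pcdhgc5 (chr18:37819513-37841873), whose protein binds a GABA-A receptor subunit at synapses, was the most abundant of all, with 11.6, 12.4 and 7.98 FPKM in the order WT1 to WT3 and with 12.2, 10.6 and 10.8 FPKM in the order TG1 to TG3, an order kept throughout. Pcdhac2 (chr18:37143503-37187657), which serotonergic axons need in order to space themselves, had 6.91, 7.03 and 4.25 FPKM in WT and 8.14, 6.23 and 7.09 FPKM in TG. Pcdhgc3 (chr18:37806364-37841873), which promotes dendrite branching in cortical neurons, had 6.27, 6.08 and 4.83 FPKM in WT and 6.54, 6.46 and 5.91 FPKM in TG. Each of these 3 genes was lowest in WT3, and for each of them the WT and TG values overlapped. Pcdhgc4 (chr18:37815079-37841873), on which the survival of many interneurons depends, had 2.45, 2.01 and 1.77 FPKM in WT and 2.48, 2.23 and 2.33 FPKM in TG. Pcdhac1 (chr18:37090013-37187657) had 0.629, 0.800 and 0.424 FPKM in WT and 0.816, 0.566 and 0.705 FPKM in TG, so it did not share the high level of the other alpha C-type gene. The 2 alpha C-type genes made up 46.3 to 52.8% of the summed FPKM of their cluster per library, and the 3 gamma ones 34.7 to 36.6% of theirs.

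The beta cluster was led by Pcdhb9 (chr18:37400855-37403909), with 6.73, 7.09 and 6.77 FPKM in WT and 7.43, 6.68 and 7.01 FPKM in TG, and with 350 to 387 reads per library. Pcdhb17 followed with a mean of 4.04 FPKM and Pcdhb7 with 3.70 FPKM. Levels in this cluster were more even: the 3 leading genes held 33.0% of the summed FPKM, against 63.3% in the alpha cluster and 38.7% in the gamma cluster. Outside the C-type genes, the leading alpha genes were Pcdha12 (1.31 FPKM) and Pcdha9 (1.00 FPKM), and the leading gamma gene was Pcdhgb6 (3.71 FPKM). In the order of FPKM, Pcdhgc5 lay above Pcdhb9 in every library and Pcdhb9 (6.68 FPKM at its lowest) stayed above Pcdhgc3 (6.54 FPKM at its highest), whereas the values of Pcdhac2 overlapped with both of these. The place of Pcdhb9 in this order holds for FPKM only, as given below. Without the C-type genes, level did not follow position along the chromosome: Spearman's rho of position with mean FPKM was 0.14 over 12 alpha genes and -0.044 over 18 gamma genes, and it was 0.11 over the 22 beta genes, as a description of genes that share libraries and neighbours.

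The level of an alpha or gamma gene depends on how its reads could be counted. In the GRCm38 annotation (GENCODE M21), in which all 57 genes had the same start and end as in the table, each of the 14 alpha genes shared 2860 to 2864 exon bases with other alpha genes, and each of the 21 gamma genes shared 2116 to 3157 bases with other gamma genes, mostly the constant exons. Of the 22 beta genes, 20 shared none, and Pcdhb21 and Pcdhb22 shared 455. A read that lies within shared bases cannot be given to a single gene, while the FPKM divides by the full gene length. There are 6 other annotated genes at the locus that overlap members and have no exon base of their own, and all 6 had 0 reads in all 6 libraries, whereas Pcdhga10, which has no base of its own either when both strands are counted, had 9, 0 and 2 reads in WT and 2, 3 and 2 in TG. The rule by which reads on shared bases were counted was not tested. The median share of exon sequence that no other annotated gene holds was 46.4% for alpha, 100% for beta and 54.8% for gamma.

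**Figure D2:**
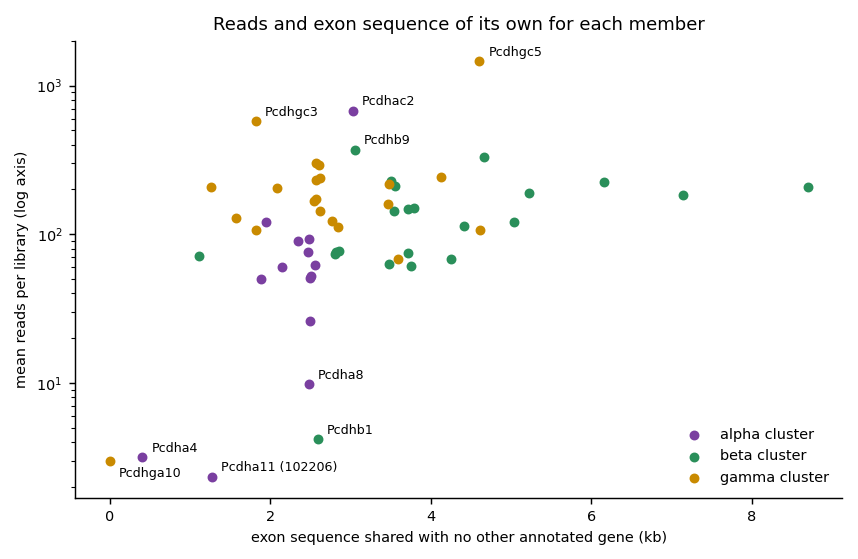
Mean reads per library (log axis) of each clustered protocadherin against its exon sequence (kb) that no other annotated gene shares on either strand, coloured by cluster. Pcdhga10, with 0 own bases, and Pcdha4, with 404, lie at the bottom left, and Pcdhb1 lies as low with 2588 own bases.

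The 4 genes that failed the filter fall into these counts. Pcdhga10 (chr18:37746993-37841873), a gamma A gene between Pcdhgb6 (3.71 FPKM) and Pcdhgb7 (1.31 FPKM), had 0 to 9 reads per library. All of its bases outside the constant exons (2613) are covered by Gm26672, a transcript on the other strand, so it had no base of its own when both strands are counted. Pcdha4 had 0 to 7 reads with 404 own bases, since Gm42416 overlaps 2410 of its bases on the same strand (and was itself 1 of the 6 genes at 0 reads). The table holds 2 genes named Pcdha11. The gene ENSMUSG00000102206, which starts at 37010712, had 0 to 7 reads with 1268 own bases, beside 2486 bases covered by the antisense gene Gm10545. The other, ENSMUSG00000007440, starts at 37005203, where the RefSeq annotation names Pcdha10, and had 25 to 83 reads and a mean of 0.542 FPKM. Pcdhb1 (chr18:37264938-37267525), at the alpha-side end of the beta cluster, had 1 to 12 reads although none of its 2588 bases is shared and none of its 50-base stretches occurs in another gene. Of the 4 genes, 3 thus had 1268 own bases or fewer when both strands are counted, and Pcdhb1 had its whole length. On the same strand alone, own bases were 2613 for Pcdhga10, 4606 for this Pcdha11 gene and 494 for Pcdha4. Whether little own sequence explains the few reads was not tested. Counted on both strands, little own sequence did not always come with few reads, since Pcdhga11 with 1256 and Pcdhb12 with 1107 own bases had means of 208 and 71.2 reads. Pcdha8, with 2478 own bases, was the lowest gene tested, at 3 to 14 reads per library and a mean of 0.107 FPKM. Antisense genes overlap 4 alpha, 1 beta and 8 gamma genes, and the strand setting of the counting is not stated, so reads of such pairs cannot be told apart.

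Per kilobase of own sequence the order of the genes changed, and it depended on whether antisense genes were taken to share bases. With shared bases removed on either strand, Pcdhgc3 had a mean of 18.2 reads per kilobase of own exon, scaled to library size, beside 18.1 for Pcdhgc5, where its FPKM had been 6.01 against 10.9. With shared bases removed on the same strand alone, Pcdhgc3 had 9.78, since 1559 of its bases lie under the antisense gene BC037039, and Pcdhgc5 stayed at 18.1 and led. Pcdhga11 had 9.48 in the first case and 4.51 in the second. Pcdhb12, of which 1927 bases lie under the antisense gene Gm37446, moved from rank 17 to rank 4 of the beta cluster in the first case and stayed at rank 17 in the second. Pcdhac2 with 12.8 and Pcdhb9 with 6.95 had the same level in both. In both cases the mean of Pcdhb9 thus lay below those of Pcdhgc3 and Pcdhac2, unlike in the order of FPKM. Since the strand setting is not stated, the exact rank of Pcdhgc3, Pcdhga11 and Pcdhb12 among the others is uncertain. A further limit is near-identical sequence. The share of 50-base stretches of the first exon that also occur in another gene had a median of 14.2% in the alpha cluster, 4.48% in the beta cluster and 0.999% in the gamma cluster, with 23.4% for Pcdha7, 39.5% for Pcdhga4 and 0% for Pcdhac1, Pcdhac2, Pcdhgc3 and Pcdhgc4.

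As sums, the 3 clusters kept the order gamma, beta, alpha in 5 of the 6 libraries. The summed FPKM of the gamma cluster was 56.4, 56.4 and 39.8 in WT, against 59.2, 53.3 and 54.9 in TG. The beta cluster summed to 45.1, 42.4 and 41.2 FPKM in WT and to 46.8, 45.1 and 46.4 FPKM in TG. The alpha cluster summed to 14.5, 14.8 and 10.1 FPKM in WT and to 17.1, 13.3 and 14.8 FPKM in TG. WT3 was the lowest library for all 3 sums, and it was the library in which beta exceeded gamma. As means of 3 libraries (± SD), gamma had 50.9 ± 9.62 FPKM in WT and 55.8 ± 3.09 FPKM in TG, beta 42.9 ± 2.02 and 46.1 ± 0.901, and alpha 13.1 ± 2.65 and 15.1 ± 1.91. The TG means were higher by 0.13, 0.10 and 0.20 on the log2 scale, and WT and TG overlapped for each cluster, by a narrow margin for beta. Without WT3 these differences of the sums came to -0.016 for gamma, 0.076 for beta and 0.038 for alpha.

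**Figure D3:**
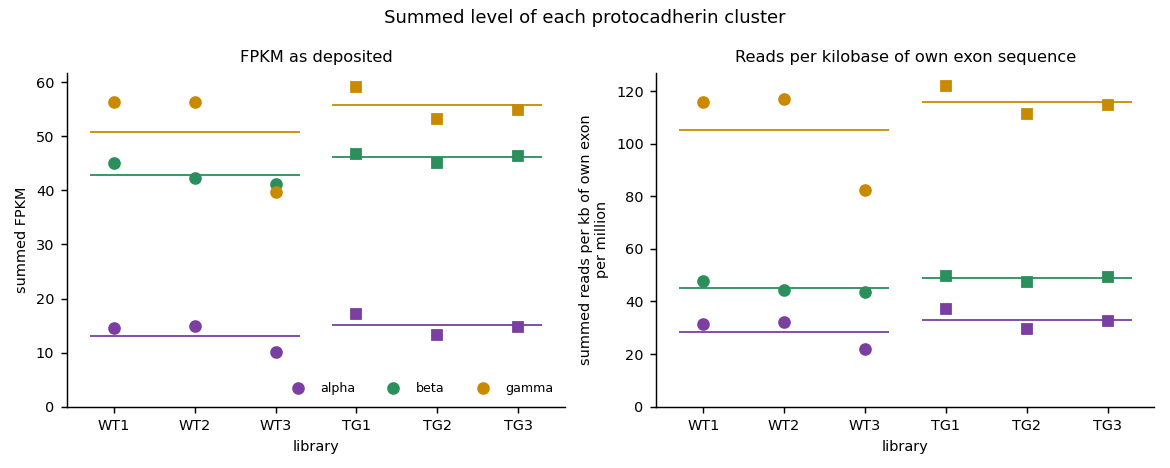
Summed level of the alpha, beta and gamma clusters in each library, as FPKM (left) and as reads per kilobase of own exon sequence scaled to library size (right), with circles for WT, squares for TG and a line at each group's mean. WT3 is the lowest circle of the alpha and gamma clusters on both scales, at 10.1 and 39.8 FPKM, while its beta sum of 41.2 FPKM is close to the other WT libraries.

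Over the 6 libraries, alpha held 12.5%, beta 40.0% and gamma 47.5% of the summed FPKM. On own sequence the shares became 16.3%, 25.2% and 58.6%, and gamma lay above beta in all 6 libraries, also in WT3 (82.6 against 43.8). Without the C-type genes the shares of the summed FPKM were 7.97%, 52.2% and 39.8%, so that beta led on the FPKM scale. This scale divides alpha and gamma genes by shared bases as well. On own sequence the C-type genes held 34.4 to 37.1% of the gamma sum of 82.6 to 122. The rest of that gamma sum still exceeded the beta sum of 43.8 to 49.6. In summed FPKM, the ratio of gamma to alpha was 3.88 ± 0.0707 in WT and 3.73 ± 0.269 in TG (SD, n = 3 each), and WT3 with 3.94 was not apart. The ratio of gamma to beta was 1.25, 1.33 and 0.966 in WT and 1.27, 1.18 and 1.18 in TG, and that of alpha to beta was 0.321, 0.350 and 0.245 in WT and 0.366, 0.295 and 0.318 in TG. Both ratios to beta were lowest in WT3, and neither separated WT from TG.

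The shift of WT3 was seen gene by gene. Of the 53 genes tested, 29 had their lowest value of the 6 libraries in WT3, beside 25.4% of all genes tested. The share was larger among protein-coding genes with exon sequence of at least 4600 bases, a class that holds all alpha and gamma genes and 7 of 21 beta genes tested, at 43.9%, and among those that span at least 100000 bases, with 10 of 12 alpha and 13 of 20 gamma genes and no beta gene, at 50.6%. By cluster these were 17 of 20 gamma genes, 6 of 12 alpha genes and 6 of 21 beta genes, and all 5 C-type genes. Against each gene's WT mean on the log2 scale, the median gamma gene lay at 0.15, 0.11 and -0.25 in WT, against 0.18, 0.035 and 0.094 in TG. The median alpha gene lay at 0.059, 0.18 and -0.24 in WT and at 0.38, 0.0029 and 0.18 in TG. The median beta gene lay at 0.057, -0.012 and -0.012 in WT and at 0.14, 0.014 and 0.18 in TG. All 20 gamma genes, 10 of 12 alpha genes and 12 of 21 beta genes were below their WT mean in WT3. Since WT3 enters that mean, its own distance from the other libraries is larger than these deviations.

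**Figure D4:**
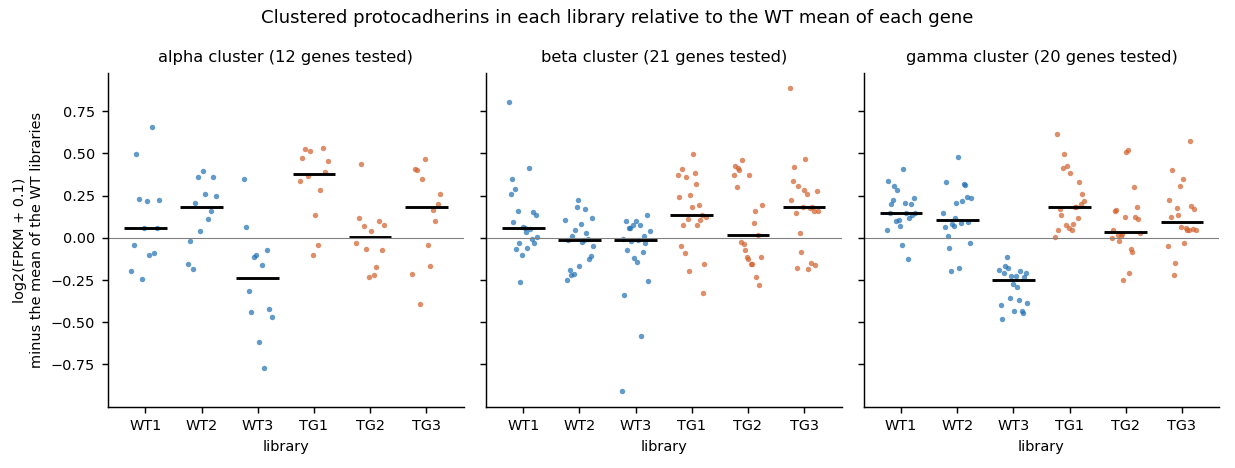
Deviation of each clustered protocadherin tested from its WT mean on the log2(FPKM + 0.1) scale in each library, with 1 point per gene, blue for WT, orange for TG, and a black bar at the median of the cluster. In WT3 all 20 gamma points lie below 0 (median -0.25) and the alpha median is -0.24, whereas the beta median is -0.012.

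Other values moved with WT3. The protein-coding genes with long exon sequence had a median deviation of -0.061 in WT3 and shorter ones 0.063, and genes with a long span had -0.10 against 0.020 for the rest. The other protein-coding genes of chromosome 18 had a median of -0.012. The non-clustered protocadherins had -0.14 and the 9 genes of silencing and methylation -0.18. The other related lists were not lower in WT3: promoter choice and looping had 0.0055 (5 of 11 below the WT mean) and the signalling and processing partners 0.041 (6 of 15 below). Of the cell type markers, those of meninges had -0.70 (5 of 5 below the WT mean) and those of oligodendrocytes -0.22 (5 of 5 below). Those of the dentate gyrus had -0.21 (2 of 2 below), those of the choroid plexus -0.17 (5 of 6 below) and those of the CA fields 0.19 (0 of 4 below). Those of neurons had -0.0020 (3 of 6 below), endothelium -0.023 (2 of 4), microglia -0.0057 (2 of 4) and astrocytes 0.012 (2 of 5). The part of these values in the low alpha and gamma levels of WT3 was not tested.

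In the comparison of WT with TG, none of the 53 genes passed the adjusted threshold in limma (smallest adjusted p = 0.786), and limma-voom on the reads also called 0. At an unadjusted p under 0.05, limma gave 2 genes higher and 1 lower in TG, beside 3.13% and 2.78% of all genes tested in the same fit. With limma-voom, 3 were higher and 0 lower. The share of all genes under limma-voom is not given here, so its counts cannot be set against a background. All 3 genes of the limma fit belong to the beta cluster. These 3 of 53 genes compare with the 5.91% of all genes tested, so the count is near the background.

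Pcdhb13 (chr18:37442500-37446209) had 2.00, 2.04 and 1.73 FPKM in WT and 2.74, 2.51 and 2.69 FPKM in TG. All 3 TG libraries lay above all WT libraries, with a log2 fold change of 0.45 (SE 0.117, unadjusted p = 0.00613, adjusted p = 0.786, limma) on 120 to 180 reads. Pcdhb5 (chr18:37320381-37323915) had 2.10, 1.70 and 2.10 FPKM in WT and 2.63, 2.64 and 2.65 FPKM in TG, again with no overlap, and a log2 fold change of 0.41 (SE 0.123, unadjusted p = 0.0116, adjusted p = 0.786, limma). Both genes kept an unadjusted p under 0.05 in every fit that left out 1 library, at 0.0101 to 0.0238 for Pcdhb13 and 0.0137 to 0.0369 for Pcdhb5 in limma. They were picked by their p in these same libraries, so these fits show only that no single library carried it and add no independent support. Pcdhb20 (chr18:37504264-37507822) had 3.59, 3.39 and 4.04 FPKM in WT and 2.89, 2.99 and 3.27 FPKM in TG, with every TG library below every WT library. Its log2 fold change was -0.26 (SE 0.108, unadjusted p = 0.0471, adjusted p = 0.786, limma), and without WT3, where it was highest, -0.19 (limma, unadjusted p = 0.111). It was thus high in the library in which the alpha and gamma genes were low.

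The groups did not overlap for 6 of the 53 genes, 5 with TG above WT and 1 with TG below, beside 6.35% and 5.71% of all genes tested. In both directions together this held for 12.1% of all genes tested, so the count of 6 is near the background. Beyond Pcdhb5, Pcdhb13 and Pcdhb20 these were Pcdhb8, Pcdhb22 and Pcdha2. Pcdhb8 had 0.994, 0.746 and 0.920 FPKM in WT and 1.16, 1.25 and 1.11 FPKM in TG (log2 fold change 0.38, SE 0.170, limma unadjusted p = 0.0608). Pcdhb22, a neighbour of Pcdhb21 with which it shares sequence, had 1.82, 1.75 and 1.87 FPKM in WT and 1.99, 2.09 and 2.04 FPKM in TG, a small difference of 0.16 on the log2 scale (limma unadjusted p = 0.194). Pcdha2 was the alpha gene among them, with 0.464, 0.473 and 0.508 FPKM in WT and 0.707, 0.531 and 0.671 FPKM in TG on 41 to 65 reads. Of the 6 genes, 5 were beta genes, and no C-type or gamma gene was among them. With a count near the background, this is not read as a difference between the clusters.

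**Figure D5:**
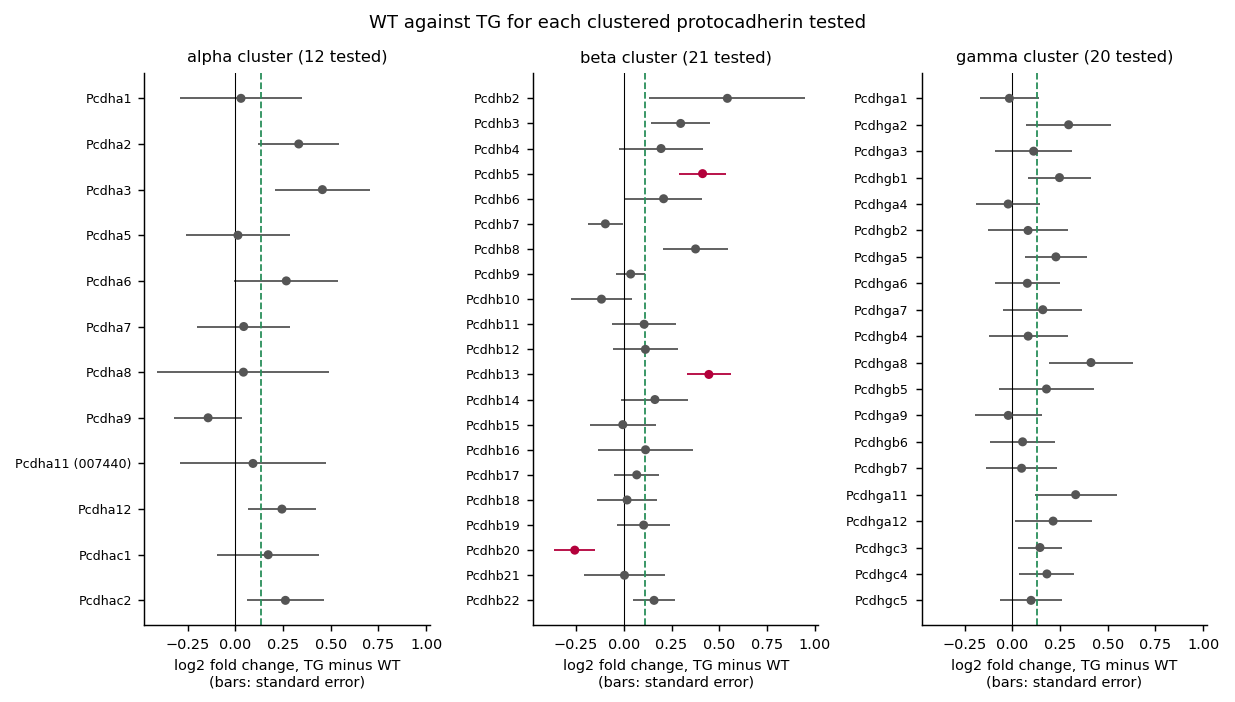
Log2 fold change (TG minus WT) of each of the 53 genes tested, in chromosomal order by cluster, with bars of 1 standard error, red for an unadjusted limma p under 0.05 (Pcdhb5, Pcdhb13 and Pcdhb20), a black line at 0 and a dashed line at the median of the cluster. The medians are 0.13 for alpha, 0.11 for beta and 0.13 for gamma, and no gene passed the adjusted threshold.

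Most fold changes were small and above 0. The log2 fold change was above 0 for 45 of the 53 genes, beside 49.6% of all genes tested, 64.3% of the protein-coding genes with at least 4600 exon bases and 68.1% of those that span at least 100000 bases, with 11 of 12 in the alpha cluster, 17 of 21 in the beta cluster and 17 of 20 in the gamma cluster. The medians were 0.13, 0.11 and 0.13, and 0.17 for the C-type genes, where all genes tested had a median of -0.0020, those with long exon sequence 0.050 and those with a long span 0.066. Without WT3 the count was 32 of 53 beside 49.2% of all genes, 55.6% of those with long exon sequence and 53.8% of those with a long span, with 6 of 12, 16 of 21 and 10 of 20, and the medians became 0.011 for alpha, 0.046 for beta and 0.0080 for gamma. The excess in the alpha and gamma clusters was therefore no longer present without this library, while the beta cluster had 16 genes above 0 in place of 17. Without TG1, the TG library with the highest alpha level, 36 genes lay above 0. In TG2, which had the most choroid plexus RNA, the cluster medians were within 0.04 of the WT mean, and without TG2 the count above 0 was 46. In TG1, which also had high choroid plexus RNA, the cluster medians were 0.38 for alpha, 0.14 for beta and 0.18 for gamma. The part of choroid plexus RNA in these values was not tested. No test was made on these counts, because genes of a cluster share the libraries.

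The 5 C-type genes each had a fold change above 0 and none passed the threshold. The largest was that of Pcdhac2 (0.26, SE 0.204, limma unadjusted p = 0.237), and that of Pcdhgc5 was 0.10 (SE 0.163) with all libraries and -0.095 without WT3. Among the most abundant genes, Pcdhb9 was the steadiest, at 0.036 (SE 0.0771), the smallest standard error of the 53. The largest fold change of all, 0.54 for Pcdhb2, came with a WT range of 0.570 to 2.10 FPKM and a TG range of 1.53 to 2.22 FPKM, and did not exceed this spread (SE 0.409, limma unadjusted p = 0.225).

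The profile over the 57 genes was much alike in all mice. Pearson's r of log2(FPKM + 0.1) between libraries was 0.958 to 0.976 within WT (3 pairs), 0.973 to 0.980 within TG (3 pairs) and 0.962 to 0.982 between WT and TG (9 pairs), as a description of libraries that share the same genes and gene lengths. The 3 ranges overlapped, and r over genes of such different levels says little about small shifts. Single genes varied more than their reads account for. The median coefficient of variation within a group was 23.8% for alpha, 12.6% for beta and 16.1% for gamma, where counting alone gives 12.8%, 8.37% and 7.31%. For all genes of 100 to 600 mean reads it was 10.8%, against 5.999% from counting. Without WT3 the values were 18.7%, 13.0% and 9.94%. The gamma genes thus came close to the 9.47% of the genes of 100 to 600 mean reads, while alpha and beta genes stayed above it. Most alpha genes tested and some beta genes had under 100 mean reads (lowest 9.83 for alpha and 61 for beta). Their values are therefore not compared at equal depth.

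The related genes showed no difference that passed the adjusted threshold. Of the 11 non-clustered protocadherins, which have promoters and tails of their own, 10 were tested and 9 had a fold change above 0 (median 0.089), with none at an unadjusted p under 0.05. Their most abundant gene, Pcdh1, had 43.9, 50.4 and 38.4 FPKM in WT and 56.6, 45.5 and 46.9 FPKM in TG, about as much in this single gene as in the whole beta cluster. Pcdh10, a protocadherin of axon growth, had the smallest p of the list (log2 fold change 0.20, SE 0.118, limma unadjusted p = 0.127). The 11 genes of promoter choice and looping were flat, with a median of 0.0072 and none at an unadjusted p under 0.05. The CTCF gene had 15.0 ± 0.584 FPKM in WT and 15.6 ± 0.592 in TG (n = 3 each), the cohesin subunit gene Rad21, the most abundant of the list, 29.6 ± 2.48 and 29.7 ± 0.959, and the cohesin loader gene Nipbl, with its smallest p, 6.09 ± 0.526 and 6.63 ± 0.322 (limma unadjusted p = 0.226). The 9 genes of silencing and methylation had a median of 0.057 and none at an unadjusted p under 0.05.

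The 15 signalling and processing partners, which include kinases bound by the protocadherin tail, the WAVE complex of actin assembly and the proteases that cut the proteins, had a median of -0.043, and 1 gene was lower at an unadjusted p under 0.05. This was Brk1, a small subunit of the WAVE complex, with 123, 122 and 146 FPKM in WT and 108, 111 and 115 FPKM in TG (log2 fold change -0.22, SE 0.091, limma unadjusted p = 0.0432, adjusted p = 0.786). Its TG libraries lay below all WT libraries, and WT3 was the highest. Nckap1, the most abundant gene of the list and another WAVE subunit, had 166 ± 9.89 FPKM in WT and 156 ± 11.2 in TG, which overlapped.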

How the data were processed

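The authors extracted hippocampal RNA (the labels name an RNeasy and a SMARTer kit, the methods Trizol and NEBNext Ultra), sequenced it on an Illumina HiSeq, counted reads per gene with HTSeq and deposited FPKM for each gene and library. The labels name GRCm38 and mm10. The aligner, the strand setting and the rule for reads on overlapping genes are not given in the sources used here. Multiplied by gene length, 100% of the FPKM came out as whole reads within 0.05 reads, and these recovered reads give the depth. Depth limits cover counting error only. Replicates differed beyond sampling noise (chi-square per degree of freedom 6.69 to 19.1), so none was used as a copy of another.

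The fit was limma 3.58.1 (R 4.3.3; lmFit, eBayes with trend) on log2(FPKM + 0.1), 3 WT against 3 TG, for the 20952 genes that averaged 0.1 FPKM or more. Adjustment was by Benjamini-Hochberg, with the threshold at 0.05. Fold changes are on the log2(FPKM + 0.1) scale and understate changes of low genes. limma-voom ran on the recovered reads as an alternative. Own exon sequence was counted in GENCODE M21 (GRCm38) as exon bases of no other gene, with Python 3.11.15, numpy 2.4.6, pandas 2.3.3 and matplotlib 3.10.9. The labels do not say whether the same replicate number pairs WT and TG mice. The r of deviations was 0.0031 to 0.043 for pairs with the same number and -0.027 to 0.016 for the other pairs. Such values cannot decide whether the mice were paired.

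The members, the lists of related and marker genes and the tests were chosen with earlier results of these data known. Named members were those with an unadjusted p under 0.05, those whose groups did not overlap, the 3 highest and the lowest of each cluster, the C-type genes and those that failed the filter. Others named for shared sequence, the largest fold change or a changed rank (Pcdha7, Pcdha8, Pcdhga4, Pcdhga11, Pcdhb2, Pcdhb12, Pcdhb21), the classes of long genes and the values of WT3 were chosen after their values were seen. For 1 gene of the related lists, values are not reported here.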

Additional observations from a re-analysis of the deposited data

How the results depend on the processing

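No clustered protocadherin passed an adjusted p of 0.05 under any setting run. The count of genes higher in TG at an unadjusted p under 0.05 (2) became 4 without the mean-variance trend. It ranged from 2 to 5 when 1 library was left out, beside 2.14 to 3.57% of all genes tested. The count of 5 and the share of 3.57% were both those without WT1. The count lower in TG (1, Pcdhb20) became 0 without the trend, with voom and with a filter of 10 reads in 3 libraries. It ranged from 0 to 1 when 1 library was left out, beside 1.94 to 3.42% of all genes tested. For the other alternative settings the share of all genes is not given here. With the replicate number as a block, which the labels do not say pairs the mice, the counts were 2 higher and 0 lower. Shares of the summed level of alpha, beta and gamma were 16.3%, 25.2% and 58.6% on own exon sequence. They were 17.5%, 26.7% and 55.8% on own sequence with strand kept (added after seeing the data). As FPKM without the C-type genes, and so not on own sequence, they were 7.97%, 52.2% and 39.8%. When 1 library was left out, the median log2 fold change ranged from 0.011 to 0.28 for alpha, 0.046 to 0.16 for beta and 0.0080 to 0.22 for gamma, each lowest without WT3. The log2 ratio of the gamma sums ranged from -0.016 to 0.21. Single genes that changed sign were Pcdhac1 (-0.037 to 0.35), Pcdhgb6 (-0.13 to 0.16) and Pcdhgc5 (-0.095 to 0.22), lowest without WT3, and Pcdhb9 (-0.0028 to 0.072), lowest without TG1. Scaling by TMM moved the median of all genes by 0.0024 and changed no direction of a named gene. Depth limits the alpha cluster most: its genes outside Pcdhac2 had a mean of at most 122 reads per library.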

Other observations

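Other genes of the protocadherin locus gave few reads. Pcdhgb8, a gamma B gene that the table lists as a polymorphic pseudogene and not as protein-coding, had 26 to 46 reads per library, fewer than any gamma gene tested. Taf7, an intronless gene of the basal transcription factor TFIID that lies at the same locus, had 76 to 150 reads per library, and the mitochondrial ornithine carrier gene Slc25a2 had 1 to 5. The antisense gene BC037039 at Pcdhgc3 had 1 to 10 reads per library, far below the 497 to 637 reads of Pcdhgc3. Gm26672 at Pcdhga10 had 1 to 11 reads per library, which is not below the 0 to 9 reads of Pcdhga10.

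The remaining marker lists are given as sums of FPKM. The 5 astrocyte markers summed to 386 to 444 in WT and 381 to 409 in TG, and none had an unadjusted p under 0.05 in limma. The 4 microglia markers summed to 49.5 to 53.9 in WT and 47.6 to 60.3 in TG. Their log2 fold changes were mixed, with 3 above 0 and 1 below. Csf1r had 0.19 (limma unadjusted p = 0.0446, adjusted p = 0.786) and P2ry12 -0.14 (limma unadjusted p = 0.298). The 4 endothelial markers summed to 42.1 to 47.4 in WT and 44.7 to 49.0 in TG. Their median log2 fold change was 0.045, with Flt1 at 0.24 (limma unadjusted p = 0.0403, adjusted p = 0.786). The 5 meningeal markers summed to 29.99, 15.0 and 13.2 in WT and to 21.7, 15.5 and 21.3 in TG. All 5 oligodendrocyte markers had a fold change below 0 (median -0.30), with Opalin at -0.77 (limma unadjusted p = 0.00983, adjusted p = 0.786). All 6 choroid plexus markers had a fold change above 0 (median 2.44), 3 of them at an unadjusted p under 0.05 in limma. The high sums were those of TG1 and TG2. In TG3 the median deviation from the WT mean was -0.063 on the log2 scale, with 4 of 6 markers below it. The part of these values in the levels of the clustered protocadherins was not tested.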
